A study of Mus musculus with 6 samples.

Results

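The nuclear-encoded genes of oxidative phosphorylation were followed in whole lung of mice with a mutant BMP receptor transgene, switched on through a smooth muscle promoter. Members were all probe sets whose only gene symbol in the platform annotation begins with Ndufa, Ndufb, Ndufc, Ndufs, Ndufv, Sdha, Sdhb, Sdhc, Sdhd, Uqcr, Cox4, Cox5, Cox6, Cox7, Cox8 or Atp5. The muscle isoforms Cox6a2, Cox7a1 and Cox8b and the Ndufaf assembly factors were left out. The choice gave 171 probe sets of 83 genes, out of 45101 probe sets on the array. The rule reads symbols only, but it was set with earlier results of these data known. Complex I held 76 of these probe sets (34 genes), complex II 9 (4 genes), complex III 16 (8 genes), complex IV 33 (16 genes) and complex V 31 (17 genes). The other 6 read Sdhaf1 to Sdhaf4, which share the Sdha prefix but encode assembly factors of complex II, not subunits. Ndufa4 and its paralogue Ndufa4l2 were placed with complex IV, because the Ndufa4 protein is a subunit of cytochrome c oxidase. After the 40% of probe sets that were dimmest over all 6 arrays were left out, 155 member probe sets of 81 genes remained, and all counts below are over these. The 16 dim member probe sets lay between 0.6 and 87.6 in intensity on every array, and Ndufb4 and Cox7b2 had no other probe set. The dimmest member kept was a probe set of Ndufa3 with a geometric mean intensity of 83.3, and the brightest left out was one of Cox8c with 55.3.

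The samples were whole lung homogenates of 6 FVB/N mice, 2 in each of 3 groups, each hybridised to 1 Affymetrix whole-genome mouse expression array. All mice carried SM22-rtTA, a transactivator that responds to doxycycline and is driven by the smooth muscle promoter SM22. Doxycycline feeding began at an age of 4 weeks and lasted 9 weeks in all mice, which were killed at 13 weeks. Controls had no other transgene. The other 4 mice were heterozygous for SM22-rtTA and for TetO7-BMPR2-R899X, which encodes a truncated BMP type II receptor. Of these, 2 had right ventricular systolic pressure (RVSP) near normal at death and 2 had high RVSP. The series is described as female throughout, though the label of control 1 does not give a sex. The transgene is switched on through a smooth muscle promoter, while the RNA came from the whole lung, flushed of blood. Which cells expressed the transgene was not tested. In such bulk samples fewer cells of a type and less RNA per cell cannot be told apart.

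Oxidative phosphorylation makes most of the ATP of resting cells. Complex I (NADH dehydrogenase, Nduf genes) and complex II (succinate dehydrogenase, Sdh genes) pass electrons to ubiquinone. Complex III (Uqcr genes) passes them on to cytochrome c and complex IV (Cox genes) to oxygen, and complex V (ATP synthase, Atp5 genes) uses the resulting proton gradient. Most subunits are encoded in the nucleus, and a small core in mitochondrial DNA. Mitochondria are dense in heart muscle, which extends along the pulmonary veins into the mouse lung. Altered mitochondrial metabolism of pulmonary vessels is a known theme of pulmonary hypertension research.

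Promoters of these genes are known for sites of nuclear respiratory factor 1 (NRF1), of ETS factors such as GABPA, and of YY1. RefSeq promoter windows of 300 bases (GRCm38.p6, 250 before to 50 after the start) were found for 69 of the 83 member genes, 74 windows in all. The letters CATGCGC (part of an NRF1 site) were present on either strand in 12 of the 74 windows (16.2%), against 3.91% of all 32851 windows. CCGGAAG, an ETS core, was present in 20 (27.0%), against 8.86% of all windows, and ATGGCGG, part of a YY1 site, in 11 (14.9%), against 4.06%. At least 1 of these 3 motifs was present in 35 windows (47.3%), against 15.03% of all. The NRF1 letters can overlap their own reverse complement, GCGCATG. In the 51 windows of genes with a probe set lower without overlap in the comparison of high with normal RVSP, ETS letters were present in 10 (19.6%), and in the 23 other member windows in 10 (43.5%). NRF1 letters were present in 8 (15.7%) and 4 (17.4%) of these, and YY1 letters in 9 (17.6%) and 2 (8.70%). These are matches of letters and not bound sites. The windows below belong to members whose high RVSP arrays lay wholly below their normal RVSP arrays, as described further on. Ndufv1 is shown because it also separated from the controls in both directions, and each of the others as the eligible member of smallest p that held 1 of the motifs, for NRF1, ETS and YY1 in this order. Only genes with a single window were eligible, and the genes of 1 chromosome were left out of this choice. All are written 5′ to 3′ with motif letters in capitals.
Ndufv1, chr19:4012706-4013005, minus strand: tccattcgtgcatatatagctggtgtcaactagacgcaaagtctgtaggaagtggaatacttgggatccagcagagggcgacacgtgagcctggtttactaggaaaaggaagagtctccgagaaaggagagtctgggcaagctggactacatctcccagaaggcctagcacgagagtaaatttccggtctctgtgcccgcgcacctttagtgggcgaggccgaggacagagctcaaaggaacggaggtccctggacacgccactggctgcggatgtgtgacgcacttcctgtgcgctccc
Ndufa8, chr2:36049289-36049588, minus strand: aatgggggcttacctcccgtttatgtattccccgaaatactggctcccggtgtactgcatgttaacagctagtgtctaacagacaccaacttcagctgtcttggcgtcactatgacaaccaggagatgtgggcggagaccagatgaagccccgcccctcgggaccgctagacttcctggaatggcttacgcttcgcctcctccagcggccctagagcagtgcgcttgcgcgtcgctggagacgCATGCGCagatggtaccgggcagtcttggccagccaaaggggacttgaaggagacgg
Atp5k, chr5:108434350-108434649, minus strand: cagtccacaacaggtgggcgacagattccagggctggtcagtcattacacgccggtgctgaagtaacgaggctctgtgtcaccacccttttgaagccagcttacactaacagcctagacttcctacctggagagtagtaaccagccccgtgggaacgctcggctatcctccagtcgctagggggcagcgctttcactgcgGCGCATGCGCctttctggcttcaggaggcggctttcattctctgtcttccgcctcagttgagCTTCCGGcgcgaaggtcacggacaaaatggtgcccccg
Ndufs7, chr10:80249199-80249498, plus strand: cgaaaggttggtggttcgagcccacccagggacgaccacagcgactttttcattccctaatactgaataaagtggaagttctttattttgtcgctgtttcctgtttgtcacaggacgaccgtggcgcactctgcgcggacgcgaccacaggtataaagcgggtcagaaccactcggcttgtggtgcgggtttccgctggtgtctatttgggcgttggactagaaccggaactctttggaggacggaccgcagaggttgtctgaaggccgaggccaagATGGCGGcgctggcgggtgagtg
The Ndufv1 window held none of these letters, the Atp5k window held an NRF1 palindrome and an ETS core, and the YY1 letters of Ndufs7 lay near the end of its window.

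The 6 arrays had median intensities from 128 to 141 and a common trimmed mean, and 27022 probe sets were tested. Lung identity was plain in the alveolar type 2 markers, of which 15 of 16 probe sets were kept, with Sftpc, surfactant protein C, at 26212 to 40876 on its bright probe set. The 3′/5′ intensity ratio of the beta-actin control probe sets, a measure of RNA integrity and labelling, was 1.89 in control 1 and 1.64 in R899X normal RVSP 1, and 1.27 to 1.45 on the other arrays. The same ratio of GAPDH ordered the arrays differently, with 0.973 and 1.03 in the controls, 0.700 and 0.875 in normal RVSP and 0.721 and 0.740 in high RVSP. Differences are given as log2(intensity + 16) with the limma standard error after ±, and each group has n = 2 mice. Probe set intensities compare samples within a probe set and do not rank genes.

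The comparison of high with normal RVSP among R899X mice asked what accompanied raised pressure when the transgene was shared. Members were lower in high RVSP, with a median log2 difference of -0.13, a ratio of 0.911, and 125 of 155 below 0 and 30 above. Over all probe sets tested the median was 0.01, with 48.3% below 0 and 51.7% above. In 77 members (49.7%) both high RVSP arrays lay below both normal RVSP arrays, against 15.5% of all probe sets tested. In 12 members (7.74%) both lay above, against 16.7% of all. All members were read in the same mice, so these counts are not of independent observations. For single members the differences were similar in size to the spread between mice, with a median within-group standard deviation of 0.17. With limma, 0 of 155 members and 0% of all probe sets passed at a Benjamini-Hochberg adjusted p of 0.05 (smallest member adjusted p = 0.9996). Unadjusted p was under 0.05 for 1 member above 0 and 2 below, against 1.67% and 0.951% of all probe sets, and the ordinary linear model also gave 0 calls.

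**Figure D1:**
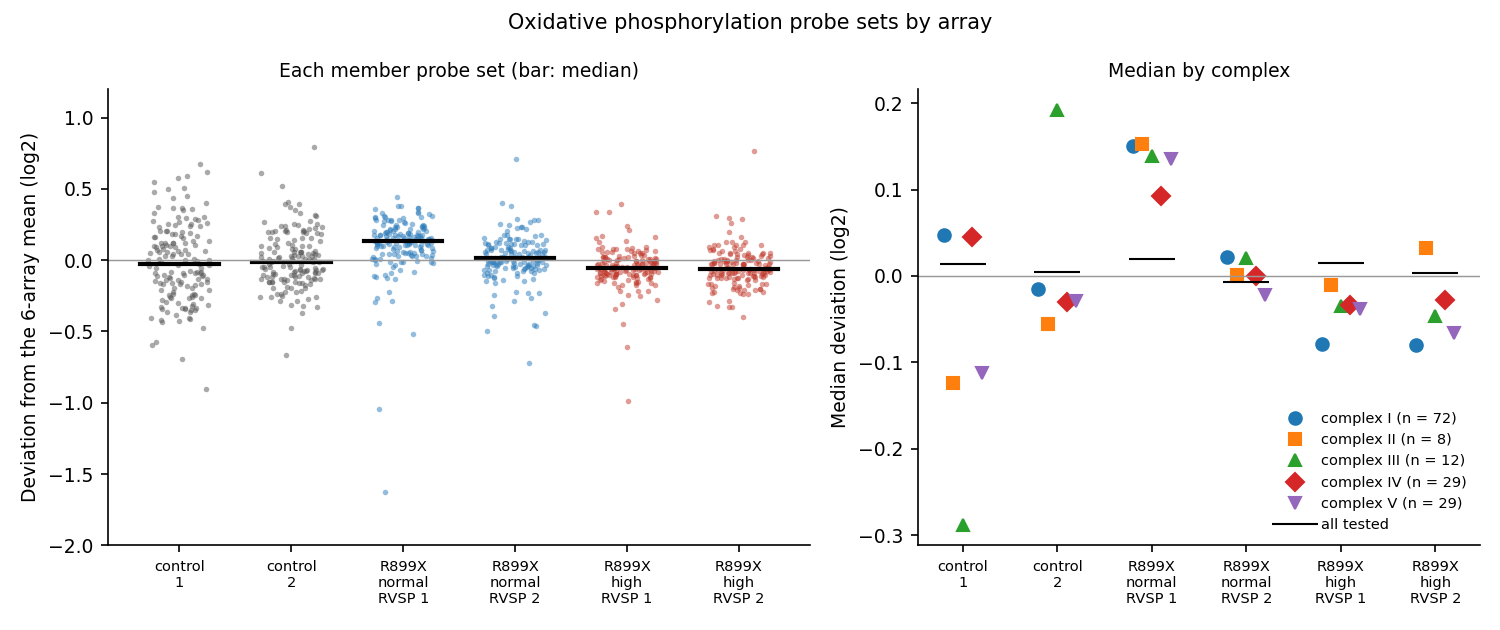
Deviation of each of the 155 member probe sets from its own mean over the 6 arrays, in log2(intensity + 16), with 1 point per probe set (left, bar at the median), and the medians by complex beside those of all probe sets tested (right). R899X normal RVSP 1 stands highest with a median of 0.14, and both high RVSP arrays stand below 0.

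The array that stood out was R899X normal RVSP 1. The median deviation of members from their 6-array mean was 0.14 in R899X normal RVSP 1 and 0.02 in R899X normal RVSP 2. R899X high RVSP 1 and 2 had -0.05 and -0.06, and control 1 and 2 had -0.03 and -0.01. R899X normal RVSP 1 was the highest of the 6 arrays for 61 of 155 members (39.4%), against 21.7% of all probe sets. It was the lowest for 5 (3.23%), against 19.3%. The high RVSP arrays were the highest for 5 and 7 members (3.23% and 4.52%), against 12.3% and 15.5% of all probe sets. They were the lowest for 19 and 26 (12.3% and 16.8%), against 12.3% and 14.8%, which is near the background. Control 1 was the highest for 39 members (25.2%, against 24.0% of all), which is near the background. It was the lowest for 56 members (36.1%, against 21.5% of all). Without R899X normal RVSP 1 the median difference between high and normal RVSP was -0.07, with 104 of 155 below 0. In that case 87 members (56.1%) had both high RVSP arrays below the remaining normal RVSP array, against 29.8% of all probe sets. Without R899X normal RVSP 2 the median was -0.19 and the count 119 (76.8%), against 39.7%.

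Complex I, which takes electrons from NADH, carried the lowest median at -0.17, with 65 of 72 probe sets below 0 and 40 lower without overlap (55.6%, against 15.5% of all probe sets). Ndufv1, the subunit that binds NADH and flavin, had intensities of 966 and 948 in normal RVSP, 701 and 796 in high RVSP, and 844 and 889 in controls. All 3 groups were thus apart on this probe set, in the order normal RVSP, control, high RVSP. Its difference between high and normal RVSP was -0.35 ± 0.16, and its other probe sets gave -0.18 and -0.33. Ndufv3, a small subunit beside it, stood at 2553 and 2308 in normal RVSP, 1926 and 1772 in high RVSP, and 2074 and 1878 in controls. Its difference was -0.39 ± 0.15 (unadjusted p = 0.0335), and here the controls overlapped with high RVSP and not with normal RVSP. Ndufa8, an accessory subunit, read 2980 and 2744 in normal RVSP, 2554 and 2306 in high RVSP, and 2643 and 2681 in controls. The controls again lay between the R899X groups, and the difference was -0.24 ± 0.15. Ndufv1 and Ndufa8 were the 2 members with normal RVSP above and high RVSP below both controls, against 0.659% of all probe sets, a count too small to set them apart from the background, and 0 members had the reverse order, against 0.588%. Ndufa2, another accessory subunit, had 4765 and 5093 in normal against 3999 and 3688 in high RVSP, a difference of -0.36 ± 0.14 (unadjusted p = 0.0383).

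The iron-sulfur and other Ndufs and Ndufv subunits of complex I, the core of electron transfer among them, had a median of -0.18, with 18 of 21 below 0. Ndufs7, a core iron-sulfur subunit, stood at 2903 and 3007 in high RVSP against 3780 and 3400 in normal RVSP and 4439 and 3305 in controls on its brighter probe set. Both high RVSP values lay below all others, with differences of -0.28 ± 0.18 from normal RVSP and -0.37 ± 0.18 from control. Ndufs8, also a core iron-sulfur subunit, was read by 6 kept probe sets, of which 5 were below 0 and 1 was at 0.09. Ndufs1 differed by -0.26 ± 0.18 and Ndufs3 by -0.01 ± 0.19, both core subunits, and in neither were the arrays apart. Ndufv2, a core subunit next to Ndufv1, gave -0.13, -0.11 and -0.22 on its 3 probe sets. The Ndufb accessory subunits of the membrane arm had a median of -0.21, with 18 of 19 below 0, and the Ndufa accessory subunits -0.15, with 24 of 27 below 0. Ndufa10 carried the most negative difference of all members, -0.62 ± 0.30, on a dim probe set with 58.2 and 95.8 in high against 131 and 117 in normal RVSP. Its bright probe set gave -0.10 ± 0.17.

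**Figure D2:**
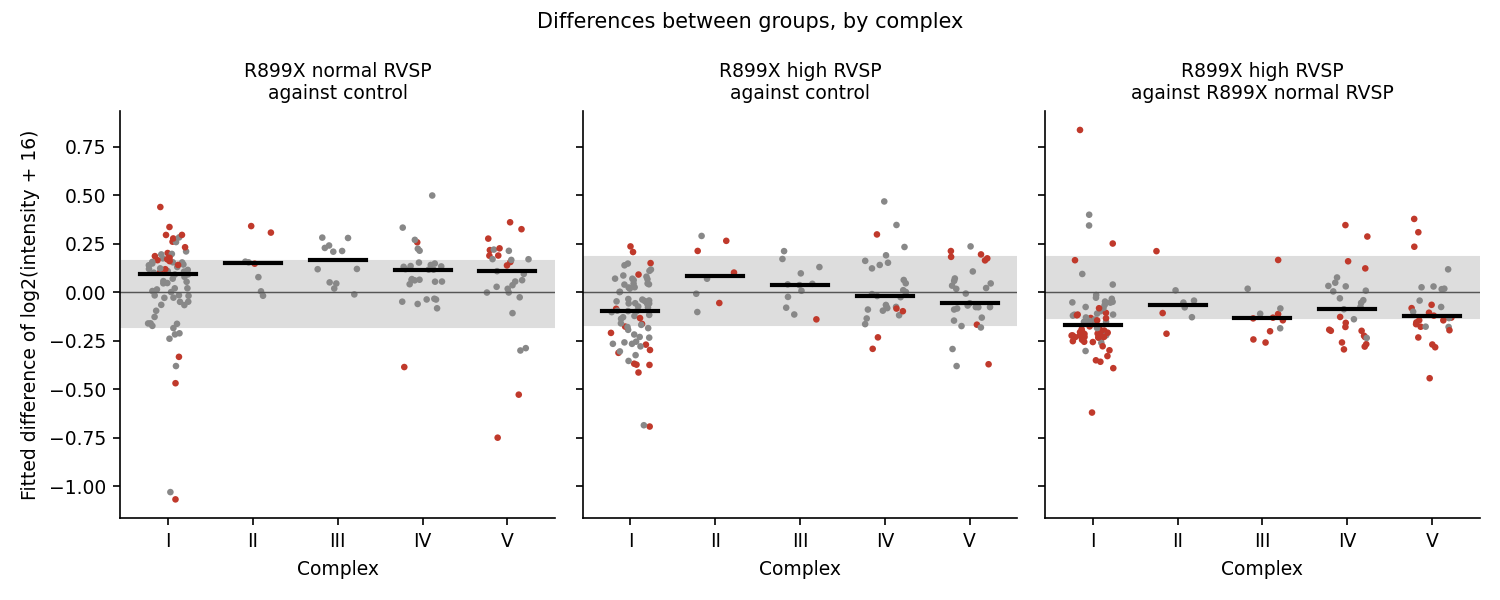
Fitted group differences of log2(intensity + 16) for each member probe set by complex, for 3 comparisons. Points in red have arrays of the 2 groups that do not overlap, bars are medians by complex, and the grey band holds the middle quartiles of all probe sets tested. In high against normal RVSP the complex I median is -0.17 and 65 of its 72 points lie below 0.

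Complex III had a median of -0.13, with 10 of 12 below 0 and 7 lower without overlap (58.3%, against 15.5% of all). Uqcrfs1, the Rieske iron-sulfur protein, stood at 3187 and 2440 in normal and 2430 and 2419 in high RVSP, so that only a narrow gap kept the groups apart (-0.20 ± 0.18). Uqcrc2, a core protein, gave -0.26 ± 0.18 and -0.11 ± 0.29 on its probe sets, and Uqcrc1, its partner, gave 0.02 ± 0.22. Complex V had a median of -0.12, with 21 of 29 below 0 and 15 lower without overlap (51.7%, against 15.5% of all). Atp5j, coupling factor 6 of the stalk, stood at 6016 and 5580 in high against 7364 and 6754 in normal RVSP and 5935 and 6114 in controls, a difference of -0.28 ± 0.14. Here the controls lay with high RVSP. Atp5b, the catalytic beta subunit, had 9409 and 10246 in high and 10370 and 9861 in normal RVSP, which overlap, and differed by -0.04 ± 0.14. Atp5a1, the alpha subunit, gave -0.18, -0.20 and -0.44 on its 3 probe sets, Atp5c1, the gamma subunit, -0.16 and 0.12, Atp5d, the delta subunit, -0.13 and -0.12, and Atp5o, of the stalk, -0.18 and -0.14.

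Complex IV had a median of -0.09, with 19 of 29 below 0 and 12 lower without overlap (41.4%, against 15.5% of all). Cox5a, a nuclear-encoded subunit, was read by 3 probe sets, all lower without overlap, at -0.23, -0.22 and -0.27. On the last of them intensities were 5308 and 5243 in high RVSP, 6951 and 5805 in normal RVSP and 5272 and 5346 in controls, so high RVSP and control were alike and normal RVSP was above both. Cox4i1, the widely expressed isoform of subunit 4, differed by -0.18 ± 0.16, with 9773 and 8896 in high against 11394 and 9776 in normal RVSP. Its lung-enriched paralogue Cox4i2 differed by 0.00 ± 0.35, with 230 and 349 in high, 245 and 327 in normal RVSP and 213 and 421 in controls. The ranges of the 3 groups overlapped fully, and whether Cox4i2 differed from Cox4i1 was not tested. Ndufa4 and its hypoxia-responsive paralogue Ndufa4l2 were above 0 without overlap, at 0.12 ± 0.18 and 0.16 ± 0.18. Ndufa4l2 stood at 622 and 721 in high, 581 and 615 in normal RVSP and 569 and 661 in controls, so the R899X groups were narrowly apart and both overlapped with the controls.

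The remaining complex IV isoforms varied. Cox7a2, the widely expressed form of subunit 7a, gave -0.26 ± 0.16 and -0.14 ± 0.15, and Cox7a2l, which joins complexes III and IV into supercomplexes, gave -0.29, -0.23 and 0.03. Cox6a1 gave -0.16 and 0.03, Cox6b1 -0.05 and -0.20 and Cox6c -0.07 and -0.09, all of them widely expressed subunits. Cox6b2 and Cox8c, isoforms known from testis, stood at 0.01 ± 0.24 and -0.19 ± 0.26. Cox8a, the widely expressed form of subunit 8, gave 0.08 and -0.03. Its dimmer probe set read 1065 in control 1 and 2000 to 2458 on the other arrays, so that control 1 stood apart from the rest.

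Complex II was nearest to 0, with a median of -0.07 and 6 of 8 below 0. Sdhb, the iron-sulfur subunit, stood at 3483 and 3493 in high against 4611 and 3550 in normal RVSP (-0.21 ± 0.17), so the second normal RVSP mouse was close to the high RVSP mice. Sdha, the flavoprotein, gave -0.08, -0.11 and 0.21, and Sdhc, a membrane anchor, gave -0.05 and 0.01. Sdhd, the other anchor, gave -0.04 ± 0.15 and -0.13 ± 0.19. The Sdhaf assembly factors had 4 of 5 below 0. No difference between complexes was tested.

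**Figure D3:**
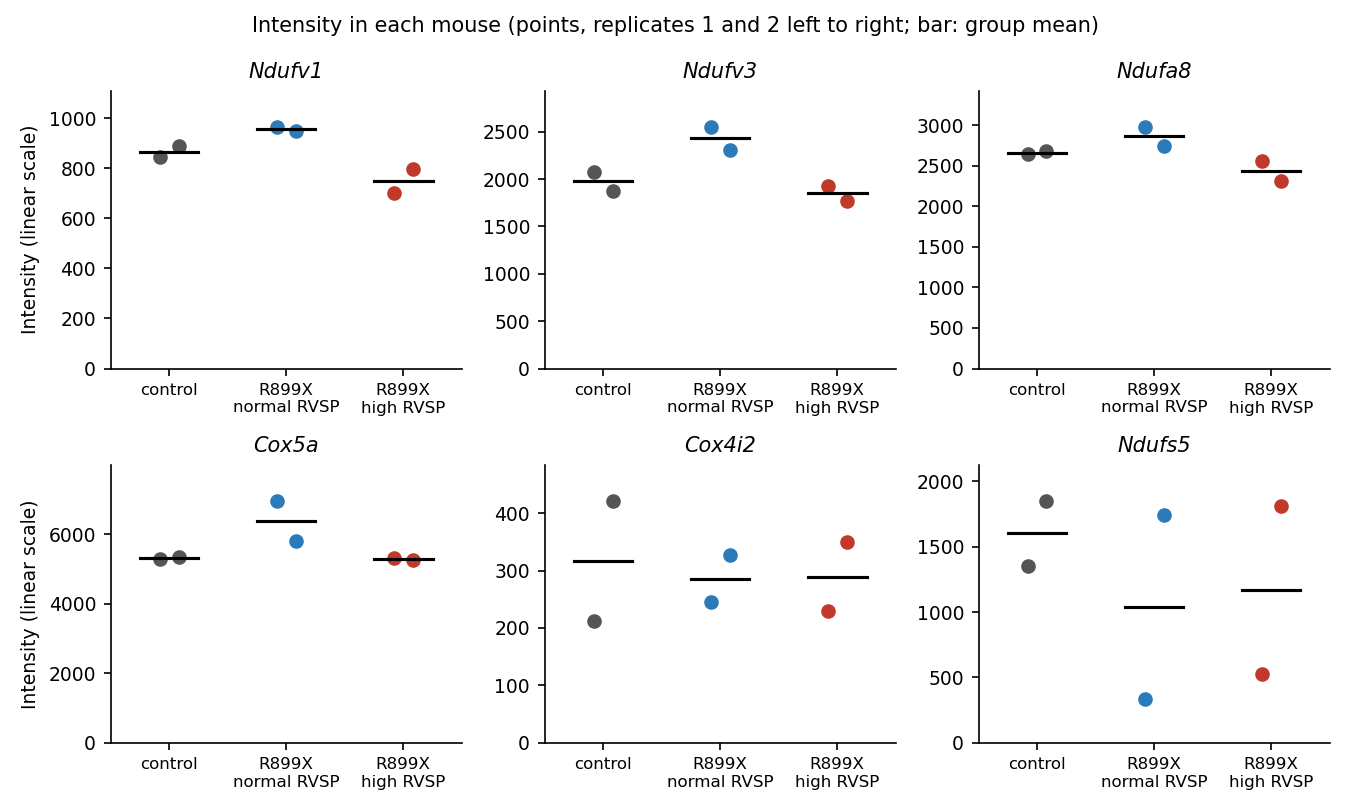
Intensity on a linear scale starting at 0 in each of the 6 mice for 6 probe sets, with points for replicates and bars for group means. Ndufv1 and Ndufa8 show normal RVSP above and high RVSP below both controls, Cox4i2 shows overlapping groups, and Ndufs5 is low in 1 mouse of each R899X group.

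Probe sets of the same gene did not always point the same way. Of the 81 genes, 46 had more than 1 kept probe set. In high against normal RVSP all probe sets were below 0 for 26 of these 46 genes and all above 0 for 1, and 19 were mixed. At gene level, 27 of 81 genes (33.3%) had every kept probe set lower without overlap, against 11.7% of all 12557 named genes. At least 1 such probe set was present for 54 genes (66.7%), against 25.7% of all. Among genes with a single kept probe set the share was 18 of 35 (51.4%), against 19.7% of all such genes. Of the 30 members above 0, 17 had a mean intensity of at least 500, a limit chosen after seeing the values, and 13 were dimmer. Of the 128 members at or above that limit 111 were below 0 (86.7%, against 54.5% of all probe sets that bright). Of the 27 dimmer members 14 were below 0 (51.9%, against 43.4%). The largest positive difference, 0.84 ± 0.32 (unadjusted p = 0.0311), came from a dim probe set of Ndufa12, an accessory subunit, with 231 and 173 in high against 75.3 and 144 in normal RVSP. The other 3 Ndufa12 probe sets gave -0.11, -0.18 and -0.13. A dim probe set of Atp5g2, a c-ring subunit, gave 0.38 ± 0.28 while its bright one gave -0.06 ± 0.15. Cox7c, a small subunit of complex IV, had both probe sets above 0, at 0.35 ± 0.26 and 0.29 ± 0.23, and Atp5md stood at 0.31 ± 0.30.

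The comparison of R899X normal RVSP with control concerned the mutation without raised pressure. Members were slightly higher, with a median of 0.11 and 114 of 155 above 0 and 41 below, against 49.9% and 50.1% of all probe sets. In 31 members (20.0%) the arrays were higher without overlap, against 14.4% of all, and in 6 (3.87%) lower, against 15.1%. Without R899X normal RVSP 1 the median was 0.04, and 41 members (26.5%) were above without overlap, against 29.6% of all probe sets, so the excess was not present without that mouse. The median was 0.02 once control 1 was left out as well. Medians by complex were 0.09 for I, 0.15 for II, 0.17 for III, 0.12 for IV and 0.11 for V. With limma 0 of 155 members and 0% of all probe sets passed (smallest member adjusted p = 0.987). Unadjusted p was under 0.05 for 1 member above 0 and 2 below, against 1.71% and 2.64% of all, and the ordinary linear model gave 0 calls.

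Among members above control without overlap, Ndufb5, an accessory subunit of complex I, had the smallest p. It stood at 3587 and 2933 in normal RVSP against 2179 and 2614 in controls, a difference of 0.44 ± 0.17 (unadjusted p = 0.0338), while its other probe set gave 0.02. Sdhd was higher on both of its probe sets, at 0.31 ± 0.15 and 0.34. Its brighter probe set read 1856 and 1734 against 1357 and 1540 in controls, and 1718 and 1765 in high RVSP, so that both R899X groups lay above both controls. Atp5a1 stood at 7988 and 6164 against 5678 and 5248 (0.36 ± 0.17), Atp5d at 0.33 ± 0.17 and Ndufv3 at 0.30 ± 0.15. Below control were the dim probe sets of Ndufa12 (-1.07 ± 0.32, unadjusted p = 0.0104, with 75.3 and 144 against 258 and 218) and of Atp5g2 (-0.75 ± 0.28, unadjusted p = 0.0296), and smaller differences of Atp5j2 (-0.53 ± 0.27), Ndufb8 (-0.47 ± 0.28) and Cox7c (-0.39 ± 0.23). At least 1 other probe set of Ndufa12, Atp5g2 and Ndufb8 pointed the other way.

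R899X high RVSP was set against the same 2 controls, so this comparison and the preceding one share their control mice. The median was -0.05, with 90 of 155 below 0 and 65 above, against 50.7% and 49.3% of all probe sets. In 21 members (13.5%) the arrays were lower without overlap, against 18.2% of all, and in 13 (8.39%) higher, against 19.1%. Both shares were below the background, that of the higher members by more. Complex I had a median of -0.10 with 49 of 72 below 0, complex II 0.09, III 0.04, IV -0.02 and V -0.06. When the fit included the beta-actin ratio, the median over all members was 0.01 in place of -0.05. Below both controls without overlap were Ndufb8, an accessory subunit, on a dim probe set (-0.69 ± 0.28, unadjusted p = 0.0394), Ndufs7 (-0.37 ± 0.18), Ndufa13 (-0.37 ± 0.18), Ndufs8 (-0.37 ± 0.18) and Cox7a2 (-0.29 ± 0.16). Ndufs8 had 3670 and 4319 in high RVSP against 5354 and 4940 in controls, with 5612 and 4302 in normal RVSP, and its other 5 probe sets pointed the same way. Above both controls were Sdhd (0.27 ± 0.15), Atp5g2 on its bright probe set (0.21 ± 0.15), Ndufb5 (0.21 ± 0.17), Atp5d (0.20 ± 0.17) and Atp5b (0.18 ± 0.14). The other probe sets of Atp5g2 (-0.37), Ndufb5 (-0.18) and Atp5d (-0.08) were below 0, and that of Sdhd was above 0 (0.21). With limma 0 members and 0% of all probe sets passed (smallest member adjusted p = 0.857), with unadjusted p under 0.05 for 0 members above 0 and 1 below, against 3.64% and 2.01% of all, and 0 calls by the ordinary linear model.

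With all 4 R899X mice set against the controls the median was 0.03, with 89 of 155 above 0 and 66 below, against 49.6% and 50.4% of all probe sets. In 10 members (6.45%) all R899X arrays were above both controls, against 7.52% of all, and in 3 (1.94%) below, against 7.71%. The former included Ndufb5 (0.32 ± 0.15), Sdhd (0.29 ± 0.13), Atp5a1 (0.27 ± 0.15), Atp5d (0.26 ± 0.14) and Atp5g2 (0.25 ± 0.13), on 1 probe set each. The other probe sets of Ndufb5 (-0.08), Atp5d (-0.02) and Atp5a1 (2 probe sets, the lower at -0.16) were below 0, and that of Sdhd was above 0 (0.28). The latter were dim probe sets of Ndufb8 (-0.58 ± 0.24, unadjusted p = 0.0445) and Atp5g2 (-0.56 ± 0.25) and one of Cox7c (-0.24 ± 0.20). The other probe sets of Ndufb8 (0.03) and Cox7c (0.13) were above 0. With limma 0 members and 0% of all probe sets passed (smallest member adjusted p = 0.832), with unadjusted p under 0.05 for 0 members above 0 and 2 below, against 3.22% and 2.71% of all. The ordinary linear model gave 0 calls.

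Other mitochondrial genes moved by similar or smaller amounts in high against normal RVSP, and 0 of their probe sets passed in limma. Tricarboxylic acid cycle genes, which feed NADH to complex I, had a median of -0.14, with 31 of 35 probe sets below 0, against 48.3% of all probe sets tested, and 17 lower without overlap (48.6%), against 15.5%. The 3 with the smallest p were Idh3a (-0.30 ± 0.19), Idh3g (-0.24 ± 0.16) and Idh3b (-0.21 ± 0.17), the subunits of NAD-dependent isocitrate dehydrogenase. Mitochondrial carriers, porins and cytochrome c had a median of -0.10, with 26 of 31 below 0. Assembly factors of the respiratory complexes, a list that shares the Sdhaf genes, had -0.06, with 34 of 55 below 0, and mitochondrial ribosomal proteins -0.05, with 90 of 131. Fatty acid oxidation genes had -0.04, with 16 of 25 below 0. Cytosolic ribosomal proteins had -0.03, with 59 of 92 below 0. The 1 kept probe set of a mitochondrially encoded subunit, ND5 of complex I, stood at 12623 and 12402 in high, 13083 and 13430 in normal RVSP and 16715 and 10047 in controls (-0.08 ± 0.23 for high against normal RVSP), and the controls spanned all other values.

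Regulators of mitochondrial biogenesis had a median of 0.00, with 19 of 37 below 0. Ppara, a fatty acid receptor that induces oxidation genes, had the smallest p, with 140 and 172 in high against 282 and 245 in normal RVSP on 1 probe set (-0.70 ± 0.24, unadjusted p = 0.0187). Other Ppara probe sets gave 0.44 and 0.24. Gabpa, an ETS factor with sites in promoters of subunit genes, stood at 408 and 423 in high against 313 and 266 in normal RVSP on a dim probe set (0.50 ± 0.20, unadjusted p = 0.0360), and its bright one gave 0.02 ± 0.16. Nrf1 gave values from -0.17 to 0.19 on 4 probe sets, and Ppargc1a, the coactivator PGC-1 alpha, values from -0.30 to -0.03 on 5.

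**Figure D4:**
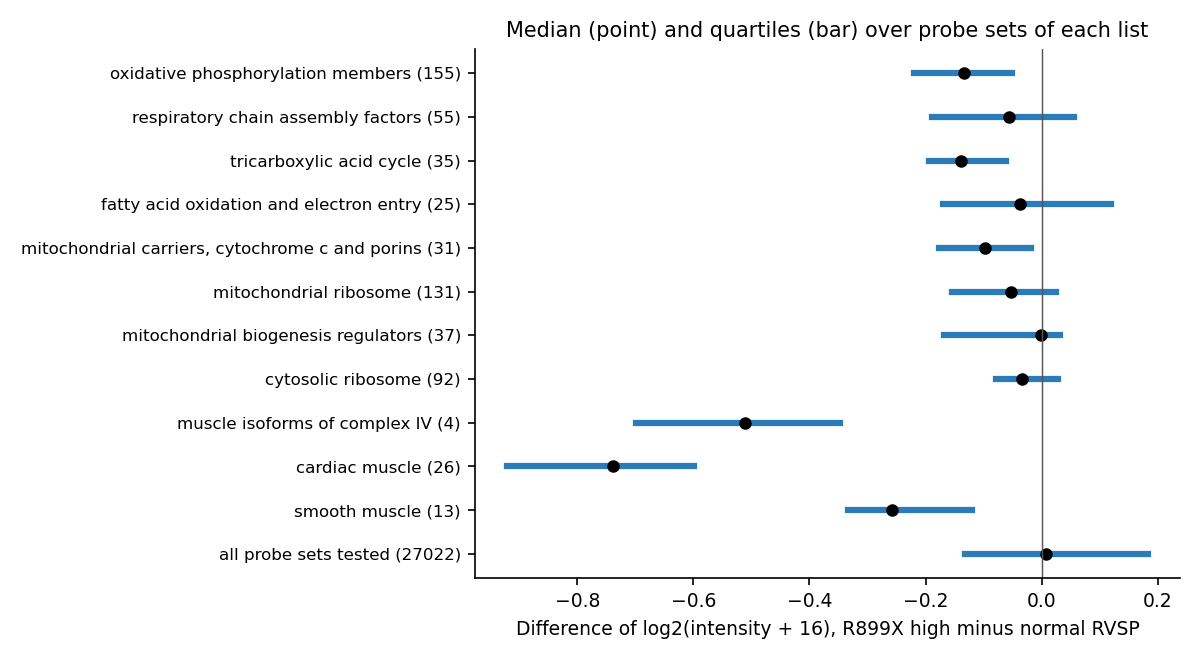
Median (point) and quartiles (bar) of the difference of log2(intensity + 16) between R899X high and normal RVSP over the kept probe sets of each gene list, with the number of probe sets in brackets. Oxidative phosphorylation members and tricarboxylic acid cycle genes have medians of -0.13 and -0.14, cardiac muscle markers -0.74, and all probe sets tested 0.01.

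Markers of several cell types were also lower in high than normal RVSP, those of muscle by the most. Of the cardiac muscle list 26 of 31 probe sets (17 of 18 genes) were kept, and 26 of 26 had a lower mean in high RVSP, with a median of -0.74. Their summed intensity ranged from 36853 to 39322 in controls, from 35985 to 48383 in normal RVSP and from 17735 to 33896 in high RVSP, and none was at 0. By array the median deviation of cardiac markers was 0.58 in R899X normal RVSP 1 and 0.06 in R899X normal RVSP 2, and 0.01 and -0.91 in R899X high RVSP 1 and 2. The members stood at -0.05 and -0.06 on those high RVSP arrays. Their median difference was -0.13 with all arrays, -0.13 without R899X high RVSP 2 and -0.07 without R899X normal RVSP 1. The muscle isoforms of complex IV, left out of the members, had lower values in high RVSP on 4 of 4 probe sets. Cox7a1 stood at 326 and 201 in high against 534 and 403 in normal RVSP and 465 and 466 in controls (-0.82 ± 0.26), and Cox6a2 at -0.66 ± 0.25 and Cox8b at -0.31 ± 0.25 on their brighter or only probe sets. Smooth muscle markers were lower on 12 of 13 probe sets (median -0.26), with summed intensities from 17695 to 20923 in controls, 22270 to 26010 in normal RVSP and 20631 to 21554 in high RVSP. The skeletal muscle list kept only 6 of 21 probe sets, of which 4 were below 0. Mb, myoglobin, which heart also expresses, stood at -1.51 ± 0.20, Ckm, muscle creatine kinase, at -1.11 ± 0.29 and Eno3 at -0.66 ± 0.27. Acta1, skeletal actin, stood at 0.52 ± 0.26. Other lists had medians about as far from 0 as the members: -0.14 for pericyte markers (10 of 15 below 0), -0.15 for adipocyte (4 of 7), -0.12 for club cell (7 of 9), -0.11 for macrophage (9 of 12) and -0.11 for ciliated cell markers (10 of 13). Alveolar type 2 markers had a median of 0.01, with 7 of 15 below 0, and red cell markers 0.20, with 1 of 3 below 0. Cardiac and smooth muscle sums were highest in R899X normal RVSP 1, as the members were. The part of these cell types in the result was not tested.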

How the data were processed

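The authors deposited 1 intensity per probe set and array, as linear values of at least 0; no source used here names the algorithm. Per the labels' protocols, total RNA of flushed right lung was biotin labelled. The arrays share a trimmed mean of 500.0 (2% cut from each tail). Values were analysed as log2(intensity + 16), which understates differences of dim probe sets, with no further normalization (array medians spanned 0.126). The 64 control and 18015 dimmest probe sets were left out (limit about 74.9), which left 27022. The model, with a mean for each group, used the 6 arrays jointly in limma 3.58.1 in R 4.3.3, with an intensity trend (3 residual and 5.06 prior degrees of freedom), two-sided, with Benjamini-Hochberg adjustment over all 27022. In 10 simulations of high RVSP against control with 200 of 27022 probe sets changed, limma called 16.2% of those changed 2-fold and 85.4% of those changed 4-fold, and 5.38% of its calls were false. An exact permutation test of 2 against 2 arrays was not used for calls, because its smallest p is far above the threshold. Symbols came from the platform annotation; all 171 matched a RefSeq gene of GRCm38.p6 and 0 changed. Of the member probe sets 28 end in _x_at and 18 in _s_at, which can read related sequences such as pseudogenes. Replicates 1 and 2 follow accession order and pair nothing. The members and lists were chosen with earlier results of these data known. Named members were the isoform sets and core subunits, and in each comparison and direction up to 5 of smallest p among those whose arrays did not overlap; from other lists up to 3 of smallest p. Acta1, Cox5a, Ndufa8, Ndufs5, Nrf1, Ppargc1a and Sftpc were named after their values were seen. Alternatives covered the pseudocount, filter, normalization, prior, moderation, beta-actin ratio, arrays used and 1 probe set per gene.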

Additional observations from a re-analysis of the deposited data

Results flagged for a closer look

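For 2 of 155 members both R899X normal RVSP arrays lay above both controls while both R899X high RVSP arrays lay below both controls, against 0.659% of all probe sets tested, so the count is near the background. They were Ndufv1 on 1 of its 3 probe sets, with a log2 difference between high and normal RVSP of -0.35, and Ndufa8, with -0.24. In limma neither difference passed (smallest member adjusted p = 0.9996). For 0 members was the order the reverse, against 0.588% of all probe sets. Groups of 2 mice are too small for a search for outlying samples.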

How the results depend on the processing

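No paired analysis was possible because the labels give no replicate numbers that mice of different groups share. No member passed in any of the 4 comparisons under any alternative except the fit without control 1 and R899X normal RVSP 1 together, where 2 members passed for normal RVSP against control, 1 for high RVSP against control and 2 for all R899X against control. These are 1.29%, 0.645% and 1.29% of the members, near the 0.485%, 1.16% and 0.844% of all probe sets that passed there. They were Uqcrc2 in all 3 and Atp5md in the first and last, on 1 probe set each; the fit leaves 1 array in each of 2 groups, whose spread is taken from the high RVSP mice. In that fit the median member difference was 0.0152 for normal RVSP against control and -0.0713 for high against normal RVSP. Leaving out 1 array at a time, the medians ranged from 0.0437 to 0.155 and from -0.190 to -0.0713 for these 2 comparisons. The extremes came without R899X normal RVSP 1 and without R899X normal RVSP 2. When the fit included the beta-actin ratio, the median for high RVSP against control was 0.0134. The count of members without overlap, recomputed after seeing the data, ranged from 87 to 119 (lower in high than in normal RVSP; 56.1% to 76.8%, against 29.4% to 39.7% of all probe sets) with 1 array left out. For higher in normal RVSP than in control it ranged from 41 to 84 (26.5% to 54.2%, against 29.6% to 34.0% of all). Without control 1 and R899X normal RVSP 1 the latter was 82 (52.9%, against 48.9%), near the background. Fewer arrays overlap less often by construction. The cause of the other changes was not tested. None of the 38 member differences named for their p changed sign under these alternatives. They were chosen among members whose arrays did not overlap, so under most alternatives, such as leaving out arrays, the sign could not change. Recovery of differences as small as most of these was not simulated.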

Other observations

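Ndufs5, an accessory subunit of complex I, had the widest range of all kept members, 2.42 on the log2 scale. Its intensities were 332 in R899X normal RVSP 1 and 526 in R899X high RVSP 1, and 1353 to 1849 in the other 4 mice, so that the low values fell in 1 mouse of each R899X group. It differed from the other members in this, of which the middle value of the range was 0.46, against 0.61 for all probe sets tested. Atp5md, a small subunit of ATP synthase, read 2592 in control 2 and 1248 to 1890 in the other mice. Uqcrc2 on its brighter probe set read 2130 in control 2 and 3373 to 4363 in the others, while its other probe set read 2472 in control 2 and 2316 to 3294 elsewhere.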
